A study of Danio rerio with 9 samples.

Results

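Zebrafish larvae that received the solvent alone were described here, as the baseline of a study of perfluorobutane sulfonate (PFBS), a short-chain perfluorinated surfactant. The control group was chosen by its exposure label and held 3 of the 9 samples in the study. These were AB-strain animals, a common wild-type laboratory strain, kept in 0.01% DMSO and collected 96 h after fertilization, each sample a pool of 15 whole animals. The other 6 samples, 3 at 16 µM and 3 at 32 µM PFBS, were of the same strain, age and pool size. No allele or transgene is named for any group. Per the labels, chorions were removed at 24 h, media were renewed every 24 h and animals were washed 3 times before collection. The labels also give a temperature of 37 °C, which is warm for zebrafish, and the data used here hold no measurement of it.

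Each control level below is the authors' value for the whole group, read from the authors' deposited table that sets the control beside 16 µM PFBS. It is an FPKM, a fragment number divided by transcript length and by library size, so that levels are per transcript length and genes can be set beside each other. The tables give 1 value per group and row. There is therefore no value per sample, no spread between the 3 control samples, no depth and no test, and every order of genes below is a description. The same 3 samples also appear as the control of the authors' deposited table for 32 µM PFBS, and that level is given where it differed by more than 0.1 on the log2 scale. In RNA from whole animals, fewer cells of a type and less RNA per cell cannot be told apart.

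At this age a zebrafish has hatched and swims, and the retina of the eye holds cones and rods. The liver, pancreas and gut are in place, and the last of the yolk is being used. Skeletal muscle makes up much of the trunk and tail. Blood cells still carry embryonic globins, and adaptive lymphocytes are few and lie mostly in the thymus. These are background facts on the stage, and the markers of each tissue below were read beside them.

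The table held 29280 rows, of which 12545 named 1 gene, 238 pooled several gene names and 16497 had no name. The named rows covered 11968 genes, and a gene with several rows was given the level of its highest row. The median gene stood at 10.197 FPKM, and the quartiles were 4.59 and 22.9 FPKM. The level passed 115 FPKM for the top 5% of genes and 947 FPKM for the top 1%. Of all genes, 97.8% were at 1 FPKM or more, 50.7% at 10 or more, 5.76% at 100 or more and 0.944% at 1000 or more. The first of these shares describes the table as much as the animal, since no row had a higher-group level below -0.36 on the log2 FPKM scale: low rows had been left out. A gene with no row was therefore not analysed here, and nothing follows from its lack of a row. Of the 3 rows listed at 0 in the control, LOC100216314 was the one with a name.

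**Figure D1:**
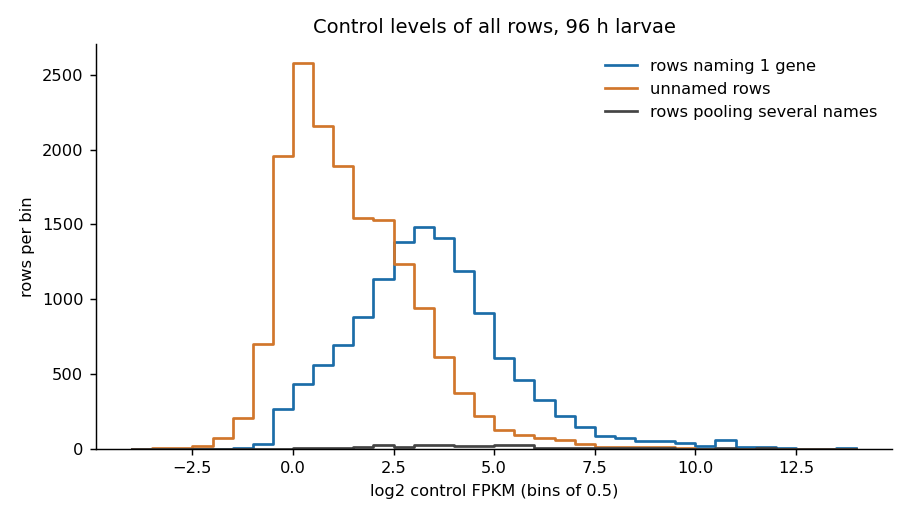
Number of rows per bin of 0.5 log2 units (vertical axis) against the log2 control FPKM (horizontal axis), for rows naming 1 gene (blue), unnamed rows (orange) and rows pooling several names (grey); the 3 rows at 0 FPKM are not drawn. Unnamed rows, with a median of 2.17 FPKM, lie to the left of the rows naming 1 gene, with a median of 9.85 FPKM.

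A small set of rows held much of the signal. The 3 highest rows held 5.68% of the FPKM summed over all rows, the 30 highest held 17.9%, the 100 highest held 34%, and 265 rows were enough for 50% of it. Unnamed rows were more numerous than named ones but held 16.5% of the sum, against 79.5% in rows naming 1 gene and 3.93% in pooled rows. The 6 rows on the mitochondrial chromosome were unnamed and summed to 43.4 FPKM. No row there named a gene, so the share of mitochondrial transcripts in the RNA cannot be read from these values.

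The 3 highest genes were all of skeletal muscle, and no other gene passed 5595 FPKM. actc1b, a striated muscle actin on chromosome 17 (758920 to 764490 in danRer7, the build of the tables), stood at 16047 FPKM. The calcium buffers pvalb2 on chromosome 12 (18777888 to 18780050) and pvalb1 on chromosome 3 (61801927 to 61812192), which speed the relaxation of fast fibres, stood at 13777 and 12944 FPKM. Next came apoa2, an apolipoprotein of liver and yolk on chromosome 16 (26218234 to 26219916), at 5595 FPKM. Myosin light chain mylz3 had 5221 FPKM, mylpfa had 4545 FPKM and tropomyosin tpma had 4360 FPKM; the mylpfa row spans a locus that other rows share, so that its level is less certain. The list then left muscle: the skin keratin krt4 had 4153 FPKM, the translation elongation factor eef1a1l1 had 3848 FPKM and the lens crystallin cryba4 had 3769 FPKM. The cryba4 row spans 225 bases of chromosome 10, and the rows of that name summed to 5354 FPKM.

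Ranks 11 to 30 mixed cytoskeleton, ribosome and muscle. The cytoplasmic actins actb2 and actb1 had 3327 and 2165 FPKM, and tmsb4x, which binds actin monomers, had 2759 FPKM. Ribosomal proteins filled 9 of these places, from rpl37 at 3259 FPKM and rplp1 at 3061 FPKM through rps2, rps29, rps20, rps12, rplp0 and rpl7a to rpl38 at 2106 FPKM. Muscle gave the troponin tnnt3b at 3214 FPKM, the creatine kinases ckmb and ckma at 3148 and 2957 FPKM, the calcium pump atp2a1 at 2647 FPKM and mylpfb at 2469 FPKM. The mitochondrial ADP/ATP carrier slc25a5 had 2957 FPKM, the high-density lipoprotein gene apoa1a had 2592 FPKM, and zgc:171772, whose row spans a shared locus of 746915 bases, had 2135 FPKM. The rows of rplp1, rps12 and ckmb also span loci that other rows share, so that their levels are less certain.

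Several high rows could not be given to 1 gene. Of the pooled rows, the type I keratins cyt1, cyt1l, krt17 and krtt1c19e shared 3822 FPKM, and apoa1b shared 3040 FPKM with pmepa1 and vgll4b. A group of gamma-crystallins with crygm2b shared 2937 FPKM and another with crygm2d2 shared 2034 FPKM, while the nucleoside diphosphate kinases nme2b.1 and nme2b.2 shared 2385 FPKM. The 5 highest unnamed rows ran from 4153 FPKM, on chromosome 23 (25592886 to 25593975), to 910 FPKM on chromosome 5, and the next below the top, with 3373 FPKM, spanned 119 bases of chromosome 8 (38940314 to 38940432). Short loci were frequent at this level: 81 of the 135 unnamed rows at 100 FPKM or more spanned under 300 bases, against 2 of 693 rows naming 1 gene.

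Grouped by symbol, ribosomal protein genes held the largest share among the 16 families examined. Their 83 genes held 17.3% of the summed FPKM with a median of 1596 FPKM, 69 of them were at 1000 FPKM or more, and the lowest was faub at 19.8 FPKM. Sarcomere, creatine kinase and parvalbumin genes, 70 in number, held 11.4% with a median of 131 FPKM. The contrast between these shares and medians shows that ribosomal genes were evenly high, whereas the muscle share rested on fewer, higher genes. The respiratory chain, ATP synthase and their assembly factors held 2.70% over 98 genes, led by atp5b at 1067 FPKM. Crystallins of the lens held 2.42% over 34 genes, translation factors 1.63%, apolipoproteins 1.48% over 14 genes and keratins 0.946% over 8. These shares count rows naming 1 gene only, against the sum over all rows, so pooled rows add nothing to a family. The keratin rows counted summed to 7124 FPKM, beside 3822 FPKM in the highest pooled keratin row, which was left out. Pooled crystallin and apolipoprotein rows were left out as well, so these 3 shares are too low. The opsin, haemoglobin and muscle families also lost pooled rows, so their shares are too low too. Among these rows were the red opsins at 572 FPKM, the hbbe1 copies at 666 FPKM and the slow myosins smyhc1 and smyhc2 at 136 FPKM. At the other end, 38 hox genes together held 0.0414%. The 47 gene names for microRNA loci, which polyA libraries capture as host or precursor transcripts, held 0.0584%.

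**Figure D2:**
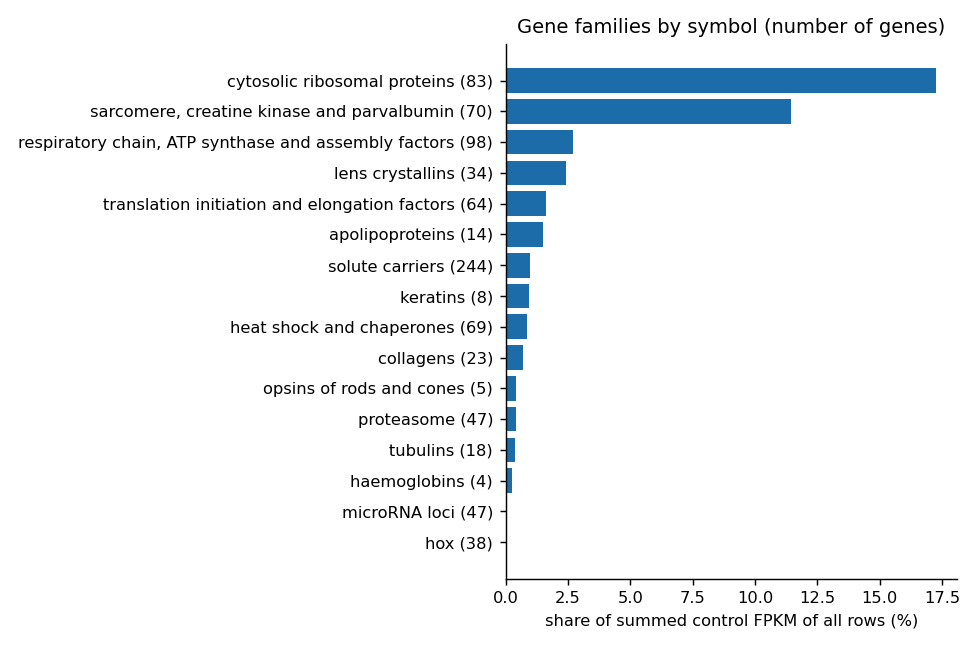
Share of the FPKM summed over all rows (horizontal axis, %) held by each of 16 families defined by gene symbol, with the number of genes in brackets. Pooled rows are not counted in any family. Ribosomal proteins, at 17.3%, and muscle genes, at 11.4%, stand far to the right of the other 14 families, of which the highest is at 2.70%.

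Tissue markers were read from 46 lists with 1108 distinct gene names. Of these names, 792 had a row of their own, 48 appeared in pooled rows alone and 268 had no row in the table used here. The 792 came to 790 genes, since apoa4 and apoa4b.1, and ntla and ta, each name the same row. Among the 790, 773 were at 1 FPKM or more, near the share over all genes (97.8%), so that this count says little about the lists. Their medians against the all-gene median of 10.197 FPKM were more telling as a description. They ran from 753 FPKM for fast skeletal muscle to 1.66 FPKM for lymphocytes and thymus, and the lists for cartilage, neurons, epidermis and liver were also in the upper part. Members without a row do not enter a median, and low rows had been left out. A list with many such members can therefore read too high, and the order of lists holds only for members with rows. A row whose locus other rows share has a less certain level. Among the genes named below this touches ckmb, cryba1l1, col1a1a, apoea, pde6h, gnat2, stmn1b, cldni, ucmab, ela2l, gch2, mybpc2b, cplx4a, tnnt1, alas2, pmchl, pmch, lck, scxa, pomca, guca1c, serping1, smyhc3, ahrra, epoa, grna, faub, stoml3b, cant1b and minos1, besides those marked where they are described.

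**Figure D3:**
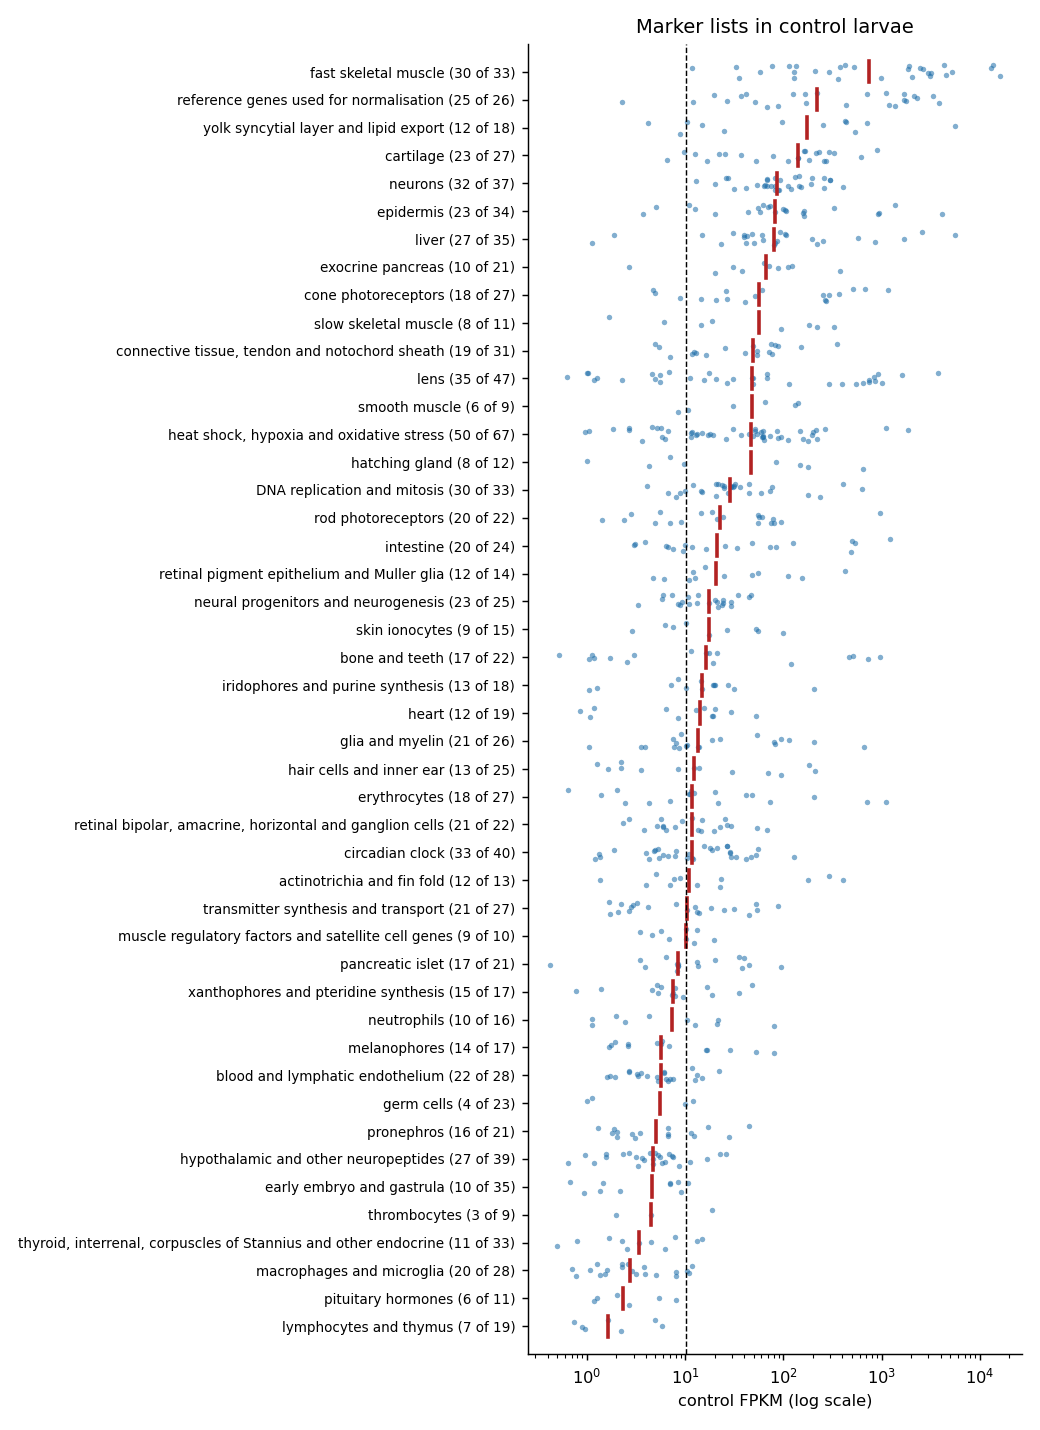
Control FPKM of each list member with a row of its own (blue points; horizontal axis on a log scale) for 46 marker lists sorted by median (red bars), with the number of members plotted and the size of the list in brackets; the dashed line is the all-gene median of 10.197 FPKM. Fast skeletal muscle lies at the top with a median of 753 FPKM and lymphocytes and thymus at the bottom with 1.66 FPKM, and most lists spread over more than a factor of 10.

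Fast skeletal muscle had 30 of 33 members in rows of their own, every one above the all-gene median. Besides the genes already named, the lowest were the calcium store protein casq1b at 58.5 FPKM, pvalb3 at 35.0 FPKM, the thick-filament protein mybpc2b at 32.9 FPKM and the calcium release channel ryr1b at 11.9 FPKM. Parvalbumin genes thus ranged from 13777 to 35.0 FPKM within the same tissue list. The fast myosin heavy chains myhz1.1 and myhz1.2 shared a pooled row at 1379.6 FPKM. Slow muscle markers had a median of 56.5 FPKM over 8 of 11 members, against 753 FPKM for fast muscle. The gap depended on the rows used. With pooled rows, each entered once for every list member it names, the slow and fast medians were 115 and 1181 FPKM. Without shared loci they were 138 and 475 FPKM. Tropomyosin tpm2 had 329 FPKM, troponin tnnc1b had 219.8 FPKM, the mitochondrial creatine kinase ckmt2b had 181 FPKM and slow myosin smyhc3 had 1.69 FPKM, with smyhc1 and smyhc2 pooled at 136 FPKM. The slow troponin tnnt1 had 14.6 FPKM, and 18.1 FPKM in the table for 32 µM. Transcripts of the transcription factors that set up muscle were far below the median of the fast muscle list. mef2d had 19.6 FPKM (23.1 in the table for 32 µM), myog had 12.3 FPKM, myod1 had 10.1 FPKM, and the lowest was myf5 at 3.48 FPKM.

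Heart markers lay near the middle of all genes, with a median of 14.2 FPKM over 12 of 19 members and none at 100 FPKM. The cardiac thick-filament protein mybpc3 had 52.3 FPKM, the heart myosin light chain myl7 had 29 FPKM and cmlc1 had 20.4 FPKM. The troponins tnni1b and tnnt2a had 19.4 and 15.6 FPKM, and hand2, a factor of heart and limb fields, had 18.8 FPKM. The ventricular myosin vmhc was pooled at 27.1 FPKM. Lowest were the atrial peptide nppa at 6.41 FPKM, nkx2.5 at 1.18 FPKM, the atrial myosin myh6 at 1.08 FPKM and tbx5a at 0.859 FPKM, the last being 1 of 17 list genes under 1 FPKM. Smooth muscle markers had a median of 47.7 FPKM over 6 of 9 members. acta2, the smooth muscle actin, had 141 FPKM and desma, an intermediate filament of all muscle types, had 132 FPKM, whereas the heavy chain myh11a had 10.8 FPKM (9.99 in the table for 32 µM).

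Cartilage was among the highest lists, with a median of 142 FPKM and 21 of 23 members above the all-gene median. The type II collagen col2a1a had 898 FPKM and col2a1b had 232 FPKM, the matrix protein matn1 had 617 FPKM, and the fibril partners col9a2, col11a1a and col9a3 had 329, 292 and 258 FPKM. The tables differed for cnmd, which the file lists under its older symbol lect1, with 271 against 198 FPKM in the table for 32 µM, and for ucmab with 140.1 against 99.7 FPKM. The regulators sox9a, sox5, sox9b and sox6, which turn on cartilage matrix genes, were at 22.3, 16.9, 12.6 and 9.78 FPKM. The shared matrix genes col1a1a, sparc, col1a1b and col1a2 had 962, 729, 516 and 468 FPKM and col10a1a had 119 FPKM. Genes of osteoblasts and mineralisation were spread, with ifitm5 at 19.2 FPKM, phex at 17.6 FPKM and alpl, in a shared locus, at 11.4 FPKM. The lowest members were bglapl at 1.19 FPKM, the bone regulator sp7 at 1.14 FPKM, mgp at 1.06 FPKM and bglap at 0.518 FPKM. Type I collagen is also made by skin and tendon, so the high genes of this list do not stand for bone alone.

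Skin was strongly represented. In the epidermis list 21 of 23 members with rows lay above the all-gene median, and the median was 82.1 FPKM. After krt4 came krt5 at 1370 FPKM, the actin-binding profilin pfn1 at 942 FPKM, krt91 at 923 FPKM and krt8 at 329 FPKM. The tight-junction gene cldni had 158 FPKM, while cldnf and cldna had 5.03 and 3.76 FPKM. The fin fold, a membrane stiffened by collagen-like actinotrichia fibres, had its 3 structural genes on top and a list median of 10.996 FPKM over 12 of 13 members. and2 had 405 FPKM, and1 had 292 FPKM and and3 had 179 FPKM, and the next member was dlx5a at 23.1 FPKM. frem2a, a basement membrane gene, had 7.73 FPKM and 4.66 FPKM in the table for 32 µM, and hmcn1 was lowest at 1.35 FPKM. Connective tissue markers had a median of 49.5 FPKM, led by postnb at 352 FPKM, tgfbi at 152 FPKM and the proteoglycan dcn at 89.3 FPKM. The tendon factor scxa, at 5.43 FPKM, and the signal gene shhb, at 4.99 FPKM, were at the bottom.

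Ionocytes are salt-transporting skin cells that do the work of the gill in larvae. Their list had a median of 17.4 FPKM, with the proton pump subunit atp6v1aa at 99 FPKM, the carbonic anhydrase ca2 at 54.9 FPKM, the calcium channel trpv6 at 26.9 FPKM, the ionocyte factors foxi3b and foxi3a at 10.3 and 7.62 FPKM and the anion exchanger slc4a1b at 2.87 FPKM. Pronephros markers were lower, with a median of 5.12 FPKM over 16 of 21 members. The tubule cadherin cdh17 had 44.9 FPKM and the bicarbonate carrier slc4a4a had 27.9 FPKM. The podocyte factor wt1b was near the low end of the list at 1.80 FPKM.

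Liver genes had a median of 80.4 FPKM over 27 of 35 members, 25 of them above the all-gene median. Lipid and vitamin carriers led: apoa2 and apoa1a as given above, then the retinol carrier rbp4 at 1698 FPKM. The iron carrier tfa had 867 FPKM, the selenium carrier sepp1a had 572 FPKM and the larval liver fatty acid binding protein fabp10a had 197 FPKM. apobb.1, the large scaffold of secreted lipoproteins, had 252 FPKM and 322 FPKM in the table for 32 µM. The lowest were ttr at 14.7 FPKM, serping1 at 1.91 FPKM and ahsg1 at 1.13 FPKM. The yolk list shares apoa2, apobb.1 and ttr with the liver list, and its median was 174 FPKM. Among its other members, apoc1 (listed as apoc1l) had 704 FPKM, apoa4b.1 had 534 FPKM, and apoea and apoeb had 431 and 428 FPKM. Yolk and liver both make apolipoproteins, and these values do not separate the sources. apoa4b.1 had no row of its own in the table for 32 µM, where it was pooled with apoa4b.2.

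Intestine markers had a median of 21.0 FPKM and a wide range. The fatty acid binding proteins fabp1b.1 and fabp2 had 1209 and 501 FPKM, the galectin lgals2b had 484 FPKM and the brush-border protein vil1 had 72.5 FPKM. The lowest members were the gut homeobox gene cdx1b at 6.45 FPKM, the amino acid carrier slc6a19b at 3.92 FPKM, the bile acid carrier slc10a2 at 3.07 FPKM and the protease mep1a.1 at 3.01 FPKM.

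In the exocrine pancreas, which makes digestive enzymes, 10 of 21 members had rows of their own, with a median of 67.3 FPKM. Trypsin (try) had 377 FPKM, the elastases ela2l and ela2 had 122 and 113 FPKM, ctrl had 88.6 FPKM, ela3l had 71.0 FPKM and the carboxypeptidase cpb1 had 63.6 FPKM. Pooled rows held more of this tissue: the trypsin-like pair prss59.1 and prss59.2 had 626 FPKM, a row with ctrb1 had 405 FPKM, and a row with cpa1 and cpa5 had 165 FPKM. Amylase, amy2a, had 20.4 FPKM and the lineage factor ptf1a had 2.69 FPKM. In the islet list the median was 8.46 FPKM. Insulin (ins) had 35.8 FPKM, the somatostatins sst1.1 and sst2 had 20.1 and 13.3 FPKM, the glucagons gcgb and gcga had 8.46 and 6.41 FPKM, and ghrelin (ghrl) had 0.426 FPKM. The highest members of the islet list were genes that neurons also use, neurod1 at 93.7 FPKM, scg2b at 44.6 FPKM, scg3 at 39.9 FPKM and isl1 at 37.8 FPKM. The islet factors pdx1 and mnx1 had 3.94 and 3.51 FPKM.

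The eye gave some of the highest tissue-specific levels. Zebrafish cones carry ultraviolet, blue, green and red pigments. The ultraviolet opsin opn1sw1 had 1176 FPKM, the green opsin opn1mw1 had 508 FPKM, the blue opsin opn1sw2 had 372 FPKM and the green opsin opn1mw2 had 8.82 FPKM. The red opsins opn1lw1 and opn1lw2 shared a pooled row at 572 FPKM, and opn1mw3 and opn1mw4 had no row in the table used here. Among the green opsins with rows, the level was thus held almost wholly by opn1mw1. Cone transduction genes were also high: the transducin gamma gngt2b had 676 FPKM in a shared locus, the phosphodiesterase subunit pde6h had 292 FPKM, the transducin subunits gnat2 and gnb3b had 272 and 267 FPKM and the arrestin arr3a had 252 FPKM. The lowest cone genes were guca1c at 4.96 FPKM and thrb, the thyroid receptor needed for red cones, at 4.69 FPKM.

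The rod list had a median of 22.8 FPKM against 56.5 FPKM for the cone list. With the pooled red opsin row included, the cone median was 157 FPKM. That value depends on the row entering once for opn1lw1 and again for opn1lw2, so it is no secure measure of the gap. Rhodopsin (rho) had 962 FPKM, in a row whose locus other rows share. The next members of the rod list were about an order of size lower, and not all of them are used by rods alone. Among them, rs1a had 93.7 FPKM, prph2b 80.4 FPKM, sagb 79.3 FPKM, gngt1 75.6 FPKM and the rod transducin gnat1 60.1 FPKM. nrl, the rod fate gene of mammals, had 1.42 FPKM. In the pigment epithelium and Muller glia list, the lipid carrier apoeb had 428 FPKM and the glutamine synthetases glula and glulb had 156 and 113 FPKM; these are used well beyond the eye. The visual cycle genes rlbp1a, rpe65a and stra6, which recycle or take up retinoid, had 24.9, 16.1 and 12.5 FPKM, and rdh5 was lowest at 4.72 FPKM. Inner retinal factors had a median of 11.8 FPKM, led by tfap2a, also a gene of skin and neural crest, at 69.1 FPKM and the bipolar cell factor vsx1 at 53.5 FPKM, with atoh7, needed to make ganglion cells, lowest at 2.35 FPKM.

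Lens genes spanned the widest range of any eye list, from 3769 to 0.629 FPKM. After cryba4, crybb1 had 1607 FPKM, cryba1l1 had 1009.9 FPKM, cryba1b had 929 FPKM, crybb1l2 had 867 FPKM and crygn2 had 832 FPKM. The alpha-crystallin cryaa, a small heat shock protein, had 30.5 FPKM, and crybb2, crygm3, crygm2c and crygs1 lay between 1.17 and 0.629 FPKM. Structural crystallins thus ranged over more than 3 orders of size within the same small organ. Many gamma-crystallins are near-identical tandem copies and share rows or loci, so the level of a single copy is uncertain.

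**Figure D4:**
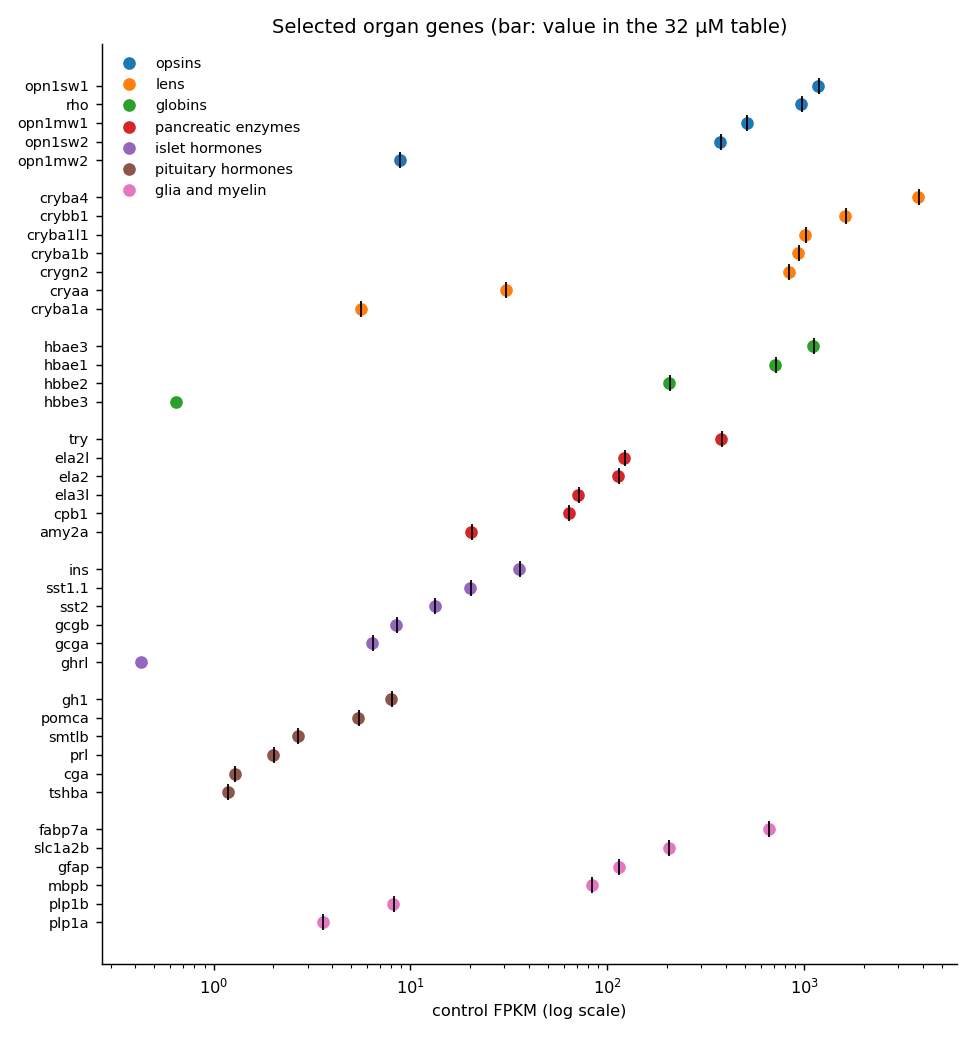
Control FPKM (horizontal axis, log scale) of genes from 7 organ groups (coloured points), with the level of the same samples in the table for 32 µM as a black bar where that table has a row. Points and bars coincide, opsins and crystallins reach 1176 and 3769 FPKM, and pituitary hormones lie at or below 8.0 FPKM.

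Neuronal genes were high throughout: all 32 members with rows lay above the all-gene median, and the list median was 85.7 FPKM. The synuclein sncb had 405 FPKM, rtn1a had 302 FPKM, calm1a had 298 FPKM, and stmn1b and tubb5, which act on or form microtubules, had 259.6 FPKM each. The synaptic vesicle gene sypa had 191 FPKM and the fusion gene snap25a had 151 FPKM. At the low end were nefmb at 27.3 FPKM, inab at 19.97 FPKM, cplx2 at 12.9 FPKM and cplx4a, for which the tables gave 26.0 and 49.5 FPKM. Genes that define a transmitter were lower, with a median of 10.5 FPKM. For the inhibitory transmitter GABA, the transporter slc6a1b had 89.3 FPKM in a shared locus of 770535 bases, and the table gave its enzymes gad1b and gad2 at 54.2 and 31.8 FPKM and its vesicle carrier slc32a1 at 53.1 FPKM. For acetylcholine, ache had 45.3 FPKM and slc18a3a had 18.5 FPKM. For glutamate, the vesicle carriers slc17a6a, slc17a7a and slc17a6b had 14.03, 13.4 and 12.6 FPKM. The lowest were glycine uptake by slc6a5 at 2.25 FPKM, dbh of noradrenaline synthesis at 2.08 FPKM and the serotonin enzymes tph1a and tph1b at 1.72 and 1.68 FPKM.

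Glia were marked by fabp7a, the fatty acid binding protein of radial glia, at 657 FPKM. The glutamate carrier slc1a2b had 205 FPKM, the glial filament gfap had 114 FPKM, and mbpb of myelin had 83.3 FPKM. slc1a3a differed slightly between the tables, with 18.9 and 16.4 FPKM. The other myelin gene copies plp1b and plp1a had 8.17 and 3.58 FPKM, and the lineage factors olig1 and nkx2.2b had 3.89 and 1.04 FPKM. Progenitor and neurogenesis genes had a median of 17.4 FPKM. Their levels ran from sox11a at 46.5 FPKM and sox11b at 45.3 FPKM to neurog1 at 3.34 FPKM.

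Peptide and hormone genes, which are made by small numbers of cells, were at the low end. Of the 27 neuropeptide genes with rows, 4 lay above the all-gene median: adcyap1b at 26.4 FPKM, sst3 at 22.8 FPKM, tac1 at 16.6 FPKM and the gut peptide pyya at 11.3 FPKM. A middle group held tac3a at 8.75, gnrh3 at 7.57, penka at 7.36, vip at 6.87, oxt at 6.32, pmchl at 5.82, adcyap1a at 5.58 and npy at 5.32 FPKM. Below these were crhb at 4.96, penkb at 4.72, trh at 4.69, sst6 at 4.38, nppc at 3.78, cart4 at 3.66, cart2 at 3.34 and pmch at 3.14 FPKM. The stress and social peptides crhb and oxt were thus above avp, the water-balance peptide, at 2.71 FPKM. The lowest were uts1 at 2.33, nmu and ucn3l at 1.56 each, gnrh2 at 1.17, hcrt at 0.959 (1.16 in the table for 32 µM) and kiss2 at 0.637 FPKM. In the pituitary, growth hormone (gh1) had 8.0 FPKM, the corticotropin precursor pomca had 5.43 FPKM, somatolactin (smtlb) had 2.68 FPKM, prolactin (prl) had 2.01 FPKM, and the thyrotropin subunits cga and tshba had 1.28 and 1.18 FPKM. The pomca level is that of its highest row. Its 2 rows summed to 10.15 FPKM, so the order of gh1 and pomca depends on the rows used. No pituitary hormone with a row reached the all-gene median, and fshb, lhb, pomcb and smtla had no row. Other endocrine markers had rows for 11 of 33 members, led by igf2b at 14.9 FPKM and stc2a at 13.4 FPKM, with epoa at 0.796 FPKM and the leptin lepa at 0.493 FPKM at the bottom.

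In the inner ear and lateral line, 13 of 25 members had rows. The calcium buffer pvalb9 had 212 FPKM and the otolith genes stm and otomp had 70.0 and 30.1 FPKM. Tables differed for s100t, with 95.7 and 141 FPKM, and for otofa, needed for hair cell release, with 8.40 and 2.87 FPKM. The hair cell fate gene atoh1a had 2.2 FPKM and the vesicle glutamate carrier slc17a8 had 1.27 FPKM.

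Red blood cells showed embryonic globins. hbae3 had 1105 FPKM, hbae1 had 709 FPKM in a row with a shared locus, hbbe2 had 205 FPKM and hbbe3 had 0.642 FPKM, while hbbe1 copies were pooled at 666 FPKM. The adult globins hbaa1, hbba1 and hbba2 had no row in the table used here. The other red cell genes were far lower, with the ammonia channel rhag at 73.5 FPKM, the haem enzyme alas2 at 12.3 FPKM and the lineage factor gata1a at 1.39 FPKM. Of the white cells, neutrophils had the highest single gene, lysozyme (lyz) at 81.0 FPKM. lect2l had 21.7 FPKM (24.6 in the table for 32 µM), and mmp13a and scpp8 had 1.14 FPKM each. The highest mpx row, at 10.5 FPKM, lies on chromosome 18 at a locus shared with other rows, so it is no secure level of myeloperoxidase. Macrophage and microglia genes had a median of 2.74 FPKM, from slc7a7 at 11.8 FPKM, cyba at 11.1 FPKM and the chemokine ccl34b.1 at 10.5 FPKM to csf1ra at 0.779 FPKM and grna at 0.712 FPKM (0.895 in the table for 32 µM). Lymphoid genes had the lowest median of all 46 lists over members with rows. Among them, lck had 5.78 FPKM, cxcr4b 4.89 FPKM, runx3 2.2 FPKM and ikzf1 1.66 FPKM. Below these lay rag1 of receptor gene rearrangement at 0.953 FPKM, the thymic epithelial factor foxn1 at 0.889 FPKM and ccr9a at 0.737 FPKM. Thrombocytes had rows for 3 of 9 members, itgb3a among them at 4.50 FPKM. Endothelial genes had a median of 5.69 FPKM. Highest was plvapb (listed as vsg1) at 22.2 FPKM, and cldn5b had 13.1, fli1a 11.9 and kdrl 6.96 FPKM. Lowest were the scavenger receptors stab2 and stab1 of vein and lymph vessels at 1.71 and 1.62 FPKM.

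Marker lists for 3 kinds of pigment cells were read. Over members with rows, the medians were 5.76 FPKM for melanophores, 7.62 FPKM for xanthophores and 15.0 FPKM for iridophores. The all-gene median was 10.197 FPKM. The melanophore list was led by enzymes and melanosome proteins, tyrp1b at 79.9 FPKM, pmela at 52.7 FPKM and dct at 28.6 FPKM. The master regulator mitfa was lowest at 1.68 FPKM. RNA from whole animals does not separate pigmented cells of the skin from those of the eye, so these levels do not stand for melanophores alone. Xanthophores make yellow pteridines, and pcbd1 and gch2 of that pathway had 47.8 and 35.0 FPKM, whereas csf1ra, shared with macrophages, had 0.779 FPKM. Iridophores reflect light through purine crystals. The purine synthesis genes paics and atic had 204 and 27.1 FPKM and pnp4a had 31.8 FPKM, but paics lies at a shared locus and all growing cells make purines. The more specific receptor genes ltk and ednrba had 1.27 and 1.06 FPKM (1.40 and 0.959 in the table for 32 µM).

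Lists for germ cells and for earlier stages had few rows. Germ cell markers had rows for 4 of 23 members, sycp1 at 12.1 FPKM in a shared locus, figla at 10.1 FPKM, nanos3 at 1.13 FPKM and the germ plasm helicase ddx4 at 1.01 FPKM. Early embryo genes had rows for 10 of 35 members, with dlc at 10.8 FPKM, gsc at 9.19 FPKM and eve1 at 0.669 FPKM. tdgf1, a cofactor of nodal signals, had 0.927 FPKM here and 19.6 FPKM in the table for 32 µM, where its row covers a longer locus. Hatching gland markers had a median of 46.8 FPKM, but the high members, the protease ctsla at 653 FPKM, xbp1 at 177 FPKM and cd63 at 147 FPKM, are used by many cells. The hatching enzymes he1a and he1b were pooled at 27.5 FPKM and hgg1, listed as ctslb, had 1.01 FPKM.

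Processes common to many cells were also read. The replication and mitosis list had a median of 28.5 FPKM. It includes the tubulin tubb2b, at 626 FPKM, which is not limited to dividing cells. hmgb2a had 405 FPKM, the replication clamp pcna had 177 FPKM and the helicase subunit mcm7 had 59.7 FPKM, down to ccnb2 at 4.06 FPKM. Among stress genes, the constitutive chaperones hspa8 and hsp90ab1 had 1872 and 1113 FPKM and the peroxiredoxin prdx2 had 267 FPKM. The heat-inducible hsp70l had 2.69 FPKM, the hypoxia target egln3 had 1.84 FPKM, and the dioxin-response genes cyp1b1 and ahrra had 1.05 and 0.966 FPKM. Clock genes had a median of 11.8 FPKM, led by the cryptochrome cry2a at 129 FPKM, bhlhe40 at 54.9 FPKM and the kinases csnk1da and csnk1db at 52.3 and 47.2 FPKM; the repressor nr1d2b had 41.9 FPKM. clocka had 1.32 FPKM, and its relative npas2 had 1.35 FPKM and 2.25 FPKM in the table for 32 µM. The collection hour is not given in the sources used here, so these levels belong to an unknown time of day. Genes often used for normalisation ranged from eef1a1l1 at 3848 FPKM to tuba1b at 26.7, hprt1 at 19.7, tbp at 12 and b2m at 2.27 FPKM.

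Over 13 families of transcription factors defined by symbol, 98 of 220 genes (44.5%) were at 10 FPKM or more, against 50.7% over all genes. At 100 FPKM or more there was 1 of the 220, against 5.76% of all genes: sox4a, the highest, at 105 FPKM. After it came the orphan nuclear receptors nr2f2 and nr2f1a at 48.8 and 46.9 FPKM, sox11a and sox11b as above, the clock receptor nr1d2b, and klf2a, which responds to blood flow in vessels, at 41.4 FPKM. foxp2 and klf6a had 36.0 FPKM each, sox2 of neural progenitors had 34.5 FPKM in a shared locus, gata3 had 32.4 FPKM and foxg1b of the forebrain had 31.8 FPKM. The rest of the 20 highest lay between 31.8 and 26.5 FPKM and comprised klf11a, sox4b, pax6a, foxo3a, six1b, pou3f3b, nr1d2a and lhx1a. By family, the median was 13.5 FPKM for 22 sox genes and 13.2 FPKM for 15 klf genes, and the lowest was 2.22 FPKM for 12 tbx genes. The 38 hox genes with rows, which set position along the body, had a median of 7.03 FPKM and none passed hoxb3a at 26.0 FPKM. The hoxb3a row shares its locus with those of hoxb4a, hoxb5a and hoxb6a. Another locus is shared by hoxc1a, hoxc6a, hoxc8a and hoxc9a, another by hoxc6b, hoxc12b and hoxc13b, and another by hoxd10a and hoxd11a. The levels of all these genes and the group medians that hold them are less certain. This touches the medians of groups 1, 3, 5, 8 and 13 given next, and that of group 8 is the hoxc8a level. Along the clusters, group 3 was highest at 26.0 FPKM, with hoxb3a as its 1 gene. Groups 5, with 2 genes, and 8, with 3 genes, had medians of 19.7 and 14.3 FPKM. Group 1 at the head end, with 4 genes, and group 13 at the tail end, with 6 genes, had 1.51 and 2.44 FPKM.

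Many zebrafish genes exist as a and b copies from a genome duplication in the ancestor of teleost fishes. The table held 1099 pairs of symbols differing in that letter with the higher copy at 1 FPKM or more. The copies were within 2-fold of each other in 521 pairs (47.4%), at least 4-fold apart in 263 (23.9%) and at least 10-fold apart in 88 (8.01%), with 0.1 FPKM added to both. The median ratio of the higher to the lower copy was 2.09. The a copy was higher in 577 pairs and the b copy in 517, and 5 were equal. Symbols do not prove that a pair arose in that event, and copies with similar sequences can exchange reads. A pair was counted only if both copies had a row naming them alone, and low rows had been left out. Pairs with a low copy can therefore be missing: postnb had 352 FPKM, for example, and postna had no row. The shares of wide gaps and the median ratio hold only for pairs with both rows and can read too low.

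The pairs farthest apart belonged to many tissues. cryba1b of the lens had 929 FPKM and cryba1a had 5.58 FPKM, a ratio of 164. The water and glycerol channel aqp3a had 133 FPKM and aqp3b had 1.27 FPKM. fabp7a of glia had 657 FPKM and fabp7b had 9.06 FPKM. Genes used in most cells showed the same spread: the ribosomal faua had 1399 FPKM against faub with 19.8 FPKM, the succinate dehydrogenase subunit sdhdb had 62.7 FPKM against sdhda with 1.06 FPKM, and the iron store fth1a had 787 FPKM against fth1b with 14.5 FPKM. The initiation factor eif3ea had 234 FPKM against eif3eb with 4.26 FPKM, and the lysosomal protease ctsba had 95.7 FPKM against ctsbb with 1.39 FPKM. In muscle, actc1b exceeded actc1a, with 16047 and 526 FPKM, and tnni2b.2 exceeded tnni2a.2, with 380.0 and 11.9 FPKM. In brain, syt1a had 65.8 FPKM against syt1b with 1.39 FPKM, aldocb had 234 FPKM against aldoca with 7.52 FPKM, and slc1a2b had 205 FPKM against slc1a2a with 7.57 FPKM. The other pairs among the 20 farthest apart were those of fam213a, nrn1, fkbp1a, stoml3, etf1, ldhb and spon1, with ratios between 25.3 and 54.6.

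**Figure D5:**
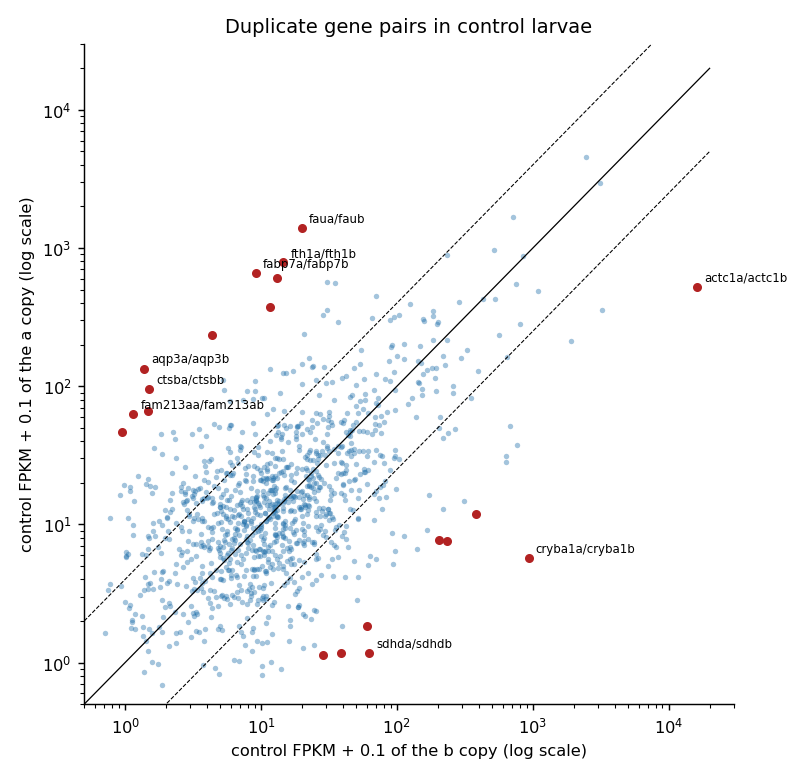
Control FPKM plus 0.1 of the a copy (vertical axis) against that of the b copy (horizontal axis), both on log scales, for 1099 pairs of gene symbols; the solid line marks equal levels, dashed lines a 4-fold difference, and red points the 20 pairs farthest apart with the higher copy at 10 FPKM or more. Most points lie between the dashed lines and 263 lie on or outside them, with actc1b/actc1a at the far right.

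The same control samples could be read from both tables, which checks the processing and not the animals. Of 11614 genes in both, the 11566 at 1 FPKM or more in each were compared. The level in the table for 32 µM was higher by a median of 0.01 on the log2 scale, the SD over genes was 0.16, and 93.6% of genes were within 0.1. A difference above 1 was found for 54 genes. Among genes at 10 FPKM or more in either table, whatever the other level, those farthest apart besides tdgf1 included gatad2b with 0.877 against 11.9 FPKM, cant1b with 19.7 against 1.54 FPKM, scamp5a with 21.1 against 1.89 FPKM and dr1 with 15.5 against 129 FPKM in the table for 32 µM. Among abundant mitochondrial genes the tables also differed for ndufa12 with 163 against 28.6 FPKM and minos1 with 126 against 49.5 FPKM. For several of these genes the row covered a different stretch in each table, dr1 for example 11270 against 106224 bases. Rows in the table for 16 µM alone were found for 354 genes, 260 of them under 1.1 FPKM. All 5 of these genes at 100 FPKM or more, rpl13a among them at 1379.6 FPKM, were in a pooled row of the other table.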

How the data were processed

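RNA of whole zebrafish was sequenced from stranded polyA libraries, per the labels' protocols, and samples were grouped by their exposure label. Per the file headers, the authors deposited the log2 of the FPKM of each group, 1 value per row and group, to 2 decimals, which rounds an FPKM by up to 0.347%; a log2 value of -10 stands for an FPKM of 0. The submitters' processing notes name Cufflinks and the build danRer7. Neither the aligner nor any version or annotation is given in the sources used here. The tables hold no read counts, so depth is unknown and no interval could be given.

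Levels were computed from the log2 column as powers of 2 with Python 3.11.15, pandas 2.3.3 and numpy 2.4.6. A gene took its highest row naming it alone; summing its rows was an alternative, as were the control column of the other table, other thresholds and pseudocounts, and leaving out short or shared loci. The PFBS column of each table was read only to find the lowest level of the higher group in any row; no PFBS level of a gene and no ratio between groups was used. Unmapped columns of per-sample values numbered 0. Of 11968 names, 10601 were current symbols in RefSeq (assembly GRCz12tu) and 1246 matched 1 synonym there; 24 list members were found through another symbol. For pairs, 0.1 FPKM was added to both copies and 121 name matches that are not copies were removed. Pair finding and shares were tested on simulated data.

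Members and lists were chosen with earlier results of these data known. Genes named are the 30 highest, the up to 8 highest and up to 4 lowest of each list, all opsins, haemoglobins, pituitary hormones and neuropeptides, the 20 pairs farthest apart, the 20 highest transcription factors, the 5 highest unnamed and 5 highest pooled rows, and genes from the 20 that differed most between the tables. alas2, alpl, cryaa, gcgb, hsp70l, plp1b, slc17a6b, slc17a7a, slc1a3a, sox9a and ucmab, members given only in pooled rows or with no row, and family extremes were added after their values were seen.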

Additional observations from a re-analysis of the deposited data

How the results depend on the processing

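Levels rest on 1 value per group, so no sample could be left out and no error was available. No paired analysis was possible because the tables give no value per sample. At a threshold of 5 FPKM, 13480 rows passed, against 26011 at 1 FPKM. With another fold, 578 pairs were at least 2-fold and 88 at least 10-fold apart, against 263 at 4-fold. The SD of the difference between the tables was 0.0947 on the log2 scale for genes at 10 FPKM or more. Medians of lists moved by more than 1.5 times in 4 of 46 lists with the control column of the table for 32 µM: germ cells 10.1 FPKM, hatching gland 84.4 FPKM, yolk 96.3 FPKM and early embryo 8.46 FPKM. These medians are over fewer members, since ddx4, hgg1, apoa4b.1 and wnt8a, for example, had no row of their own there. The lowest higher-group level in that table was 0.14 on the log2 scale, against -0.36 in the table for 16 µM. Pooled rows were also included, a row naming several members of a list entering once for each of them. With these, 4 lists moved: fast muscle 1181 FPKM, slow muscle 115 FPKM, cones 157 FPKM and hatching gland 27.5 FPKM. The cone value depends on the red opsin row entering for both opn1lw1 and opn1lw2. Without rows at shared loci, 6 moved: fast muscle 475 FPKM, slow muscle 138 FPKM, lens 26.5 FPKM, neutrophils 4.29 FPKM, germ cells 1.13 FPKM and hatching gland 83.9 FPKM. The cause of these shifts was not tested. Summing rows, leaving out members at 0 and leaving out loci under 300 bases moved none of the 46 medians by that much. Short-locus, shared-locus and family-share settings were chosen after seeing the data.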
